A study of Mus musculus with 26 samples.

Results

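Lymphatic and large vessel genes were examined in sorted mouse liver cells during injury. The 7 genes, chosen by name, were Vegfc, Ccbe1, Flt4, Prox1, Mmrn1, Pdpn and Vwf, out of 27827 named genes on the array. They are represented by 16 of the 41174 probes on the array, namely 4 for Ccbe1, 3 each for Prox1 and Vwf, 2 each for Mmrn1 and Pdpn, and 1 each for Flt4 and Vegfc. Every probe is described, and 15 of the 16 were bright enough to be tested. Mmrn1 and Ccbe1 had been picked because they differed between the sorted fractions in these same arrays, so the values of that contrast are a description and carry no test.

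RNA of liver cells from Foxl1-Cre; RosaYFP mice aged 6 to 10 weeks was hybridised to 1-colour Agilent arrays. In these mice the Foxl1-driven Cre recombinase switches on YFP permanently. A YFP-positive cell is thus one in which the recombinase has been active at any time, or a descendant of such a cell. Mice ate a diet with DDC, a toxin that injures the bile ducts, for 3, 7 or 14 days, and YFP-positive (4, 3 and 2 arrays) and YFP-negative cells (3, 3 and 3 arrays) were then sorted from CD45-negative non-parenchymal cells. The day 0 group (2 arrays) was the whole non-parenchymal fraction of chow-fed mice of the same genotype, unsorted and with CD45-positive cells, so against day 0 the diet and the sort cannot be told apart. The labels do not say whether arrays of a group came from separate mice, so p-values measure the spread between these samples, which may be technical. Of the spots, 80.9 to 88.2% were well above background on sorted arrays and 89.8 to 91.0% on day 0 arrays, and none was saturated. The other 6 of the 26 samples of the series are not analysed here.

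Lymphatic vessels grow under the control of VEGFC, a secreted ligand that becomes active only after proteases of the ADAMTS family, held in place by the secreted cofactor CCBE1, have cut its precursor. The active ligand signals through FLT4, a receptor tyrosine kinase of lymphatic endothelium that liver sinusoidal endothelium also carries. PROX1, a homeobox transcription factor, sets lymphatic endothelial identity and is also found in hepatocytes. MMRN1 and PDPN are markers of lymphatic endothelium, PDPN also of some epithelia, fibroblasts and mesothelium, and VWF is a clotting protein of large vessel endothelium and platelets. In RNA of mixed cells, fewer cells of a type and less RNA per cell cannot be told apart.

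The probes are 60-base oligonucleotides, and 2 of them are shown, written 5′ to 3′, to make plain what was hybridised. The Prox1 probe A_51_P369058 lies on chr1:191977369-191984426 in mm9, a span of 7058 bases for 60 bases of probe, so its aligned parts are separated in the genome and it reports RNA in which they are joined. The Vwf probe A_51_P103406 lies in 1 piece on chr6:125635858-125635917.
Prox1 A_51_P369058: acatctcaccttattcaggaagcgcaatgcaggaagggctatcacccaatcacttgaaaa
Vwf A_51_P103406: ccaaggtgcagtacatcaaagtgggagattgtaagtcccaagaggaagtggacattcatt

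Values are levels, that is log2 of the processed signal over the 75th percentile of its array, so 0 is the array's own 75th percentile. A difference is a difference of group means of such levels, with its standard error (SE). Levels of different probes were not compared, because a probe's brightness also depends on its sequence.

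Over the 3 days of diet, Mmrn1 and 1 of the 4 Ccbe1 probes were much lower in YFP-positive than in YFP-negative cells. Vegfc and the 3 Vwf probes were lower by smaller amounts, Flt4 differed by less than its SE, and both Pdpn and all 3 Prox1 probes were higher in YFP-positive cells. In all, 9 of the 15 probes were lower, where 49.5% of all tested probes had a difference below 0. The 2 of the 15 that were past an adjusted p of 0.05 are the probes of the genes picked from this contrast (0.652% of all probes passed). Because they were picked for it, their passing is not a test and says nothing about the 7 genes as a set. At days 3, 7 and 14 taken singly 7, 10 and 9 of the 15 were lower, where 45.6, 51.2 and 47.8% of all probes were.

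**Figure D1:**
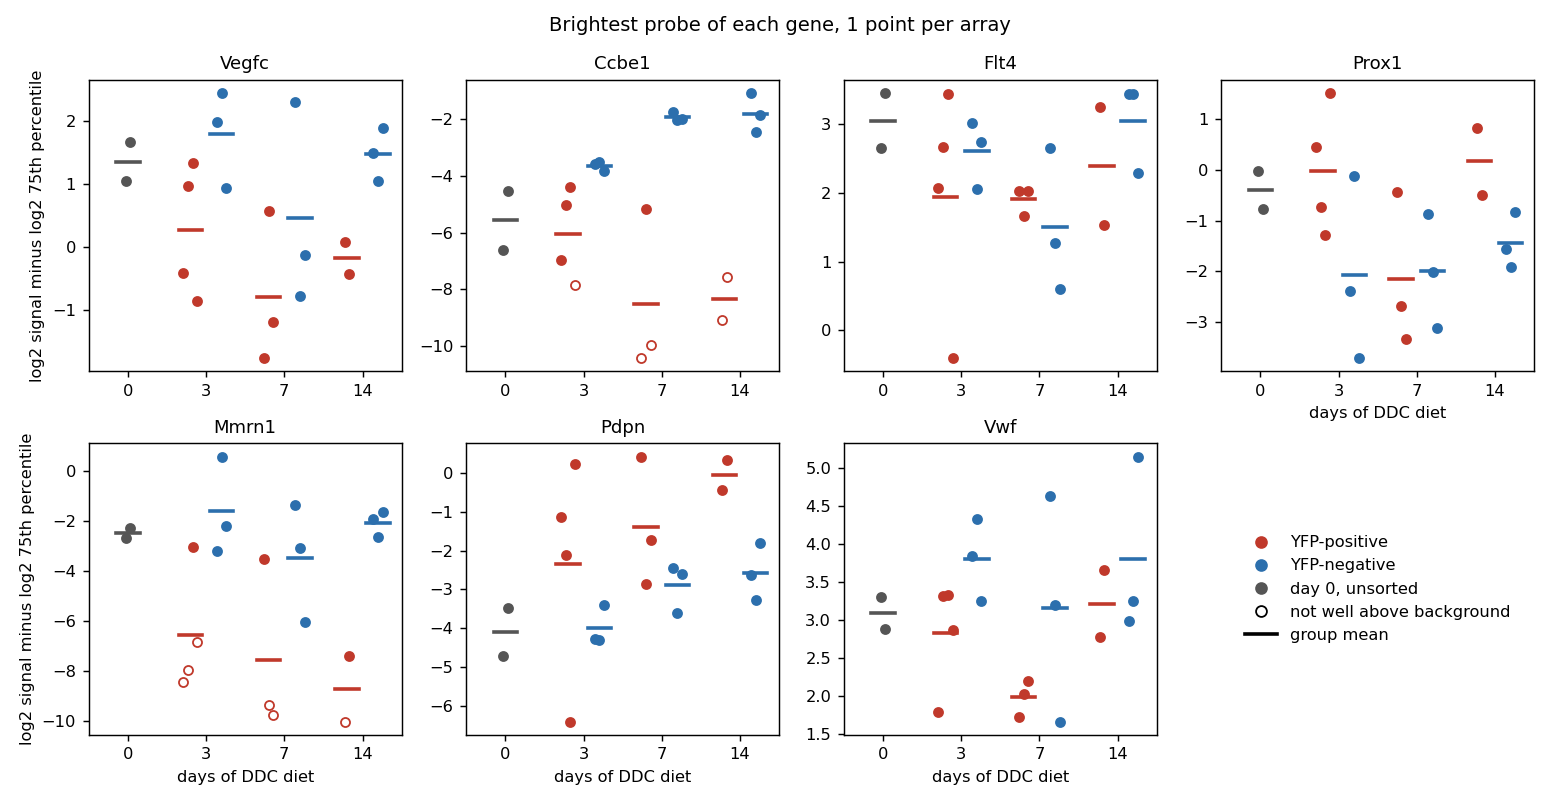
Level of the brightest probe of each gene on every array, as log2 signal minus the log2 75th percentile of the array (vertical axis), against days of DDC diet (horizontal axis). Filled points are arrays well above background, open points are not, and bars are group means; at day 14 both YFP-positive arrays lie below all YFP-negative arrays for Mmrn1, Ccbe1 and Vegfc and above them for Pdpn and Prox1.

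The ligand gene Vegfc (probe A_51_P433870, chr8:55271533-55271592) was measured well above background on all 20 arrays. Its level in YFP-positive cells was -0.41, 0.97, 1.34 and -0.86 at day 3, -1.77, 0.57 and -1.20 at day 7, and 0.08 and -0.43 at day 14. In YFP-negative cells it was 1.99, 2.45 and 0.93 at day 3, 2.30, -0.78 and -0.13 at day 7, and 1.50, 1.04 and 1.90 at day 14, against 1.04 and 1.67 in day 0 cells. The fractions were apart at day 14 and overlapped at days 3 and 7, where some YFP-negative arrays were as low as YFP-positive ones. The difference between YFP-positive and YFP-negative cells was -1.53, -1.27 and -1.66 at days 3, 7 and 14, and -1.49 ± 0.47 (SE) over the 3 days. At day 7 it was -0.35 without YFP-negative replicate 1 and -1.95 without YFP-positive replicate 3.

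Ccbe1, the cofactor needed to activate VEGFC, had 4 probes on chromosome 18 that did not behave alike. The brightest, A_52_P39083 (chr18:66216772-66216831), had levels of -6.95, -5.01, -4.38 and -7.84 in YFP-positive cells at day 3, -10.41, -5.15 and -9.95 at day 7, and -9.09 and -7.56 at day 14. In YFP-negative cells the levels were -3.59, -3.52 and -3.83 at day 3, -1.75, -2.03 and -2.01 at day 7, and -1.08, -2.47 and -1.86 at day 14, against -6.60 and -4.54 in day 0 cells. All 9 YFP-positive arrays lay below all 9 YFP-negative arrays, which 0.0404% of all probes did, and all 9 YFP-negative arrays lay above both day 0 arrays. Day by day, 8.76, 9.33 and 11.1% of all probes had all YFP-negative arrays above both day 0 arrays at days 3, 7 and 14. Because Ccbe1 was picked from the contrast of the fractions, its separation there is a description and the share of 0.0404% does not measure chance. The probe was well above background on 4 of the 9 YFP-positive arrays and on every YFP-negative and day 0 array.

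The difference between the fractions for this Ccbe1 probe was -2.40, -6.57 and -6.52 at days 3, 7 and 14, and -5.16 ± 0.68 (SE) over the 3 days. With normexp background correction the difference over the days was -2.46. At day 7 the probe was well above background on 1 of 3 YFP-positive arrays, and at day 14 on neither, so the difference at day 14 is a bound. The level was at least 56.6-fold lower in YFP-positive than in YFP-negative cells, with the dimmest spot still well above background on a YFP-positive array standing in for its level. This bound holds for the scaled processed signals, since with normexp the difference at day 14 was -2.53.

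Of the other Ccbe1 probes, A_52_P195100 (chr18:66218253-66218312) had a lowest, median and highest level of -9.74, -5.03 and -1.54 in YFP-positive cells and of -6.97, -3.92 and -1.98 in YFP-negative cells, with 5 of 9 and 9 of 9 arrays well above background. Its difference was 0.53 at day 3, -4.03 at day 7 and -2.51 at day 14, and -2.0 ± 1.1 (SE) over the days. This value rested on the 2 YFP-positive arrays of day 14, at -9.74 and -1.54, since it was -0.64 without replicate 1 and -3.37 without replicate 2.

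The probe A_51_P313067 (chr18:66220680-66220739) was well above background on all 20 arrays and ran from -7.22 to -4.90 in YFP-positive cells and from -7.11 to -3.96 in YFP-negative cells. Its difference of -0.09 ± 0.41 (SE) was smaller than its error. The probe A_52_P202180 (chr18:66205412-66205471), listed under a cDNA clone, ran from -7.94 to -3.02 in YFP-positive cells and from -10.02 to -4.21 in YFP-negative cells, with a difference of 0.79 ± 0.78 (SE). Over the 20 arrays A_52_P39083 and A_52_P195100 had a Pearson r of 0.66, while the other pairs of Ccbe1 probes ran from -0.22 to 0.34. These correlations share arrays and their scaling.

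**Figure D2:**
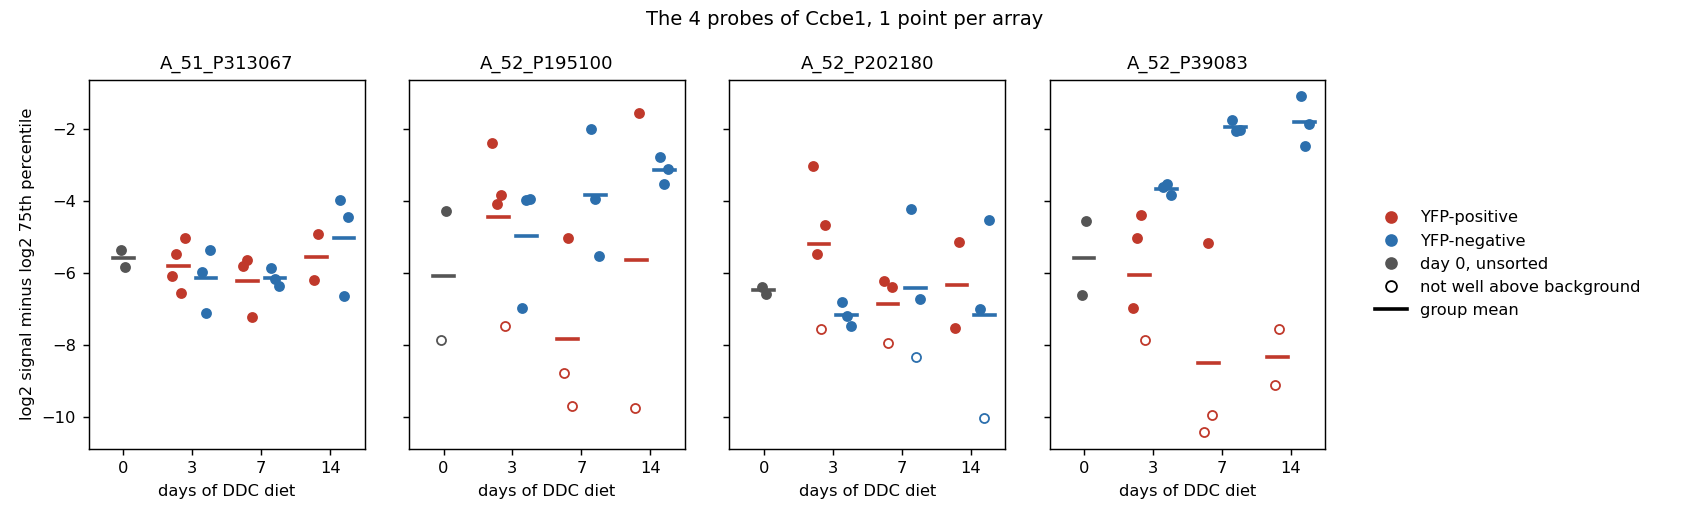
Level of each of the 4 Ccbe1 probes on every array (vertical axis, log2 signal minus the log2 75th percentile of the array) against days of DDC diet (horizontal axis). Open points are not well above background and bars are group means; only A_52_P39083, with YFP-negative levels of -3.83 to -1.08 and YFP-positive levels of -10.41 to -4.38, separates the fractions at each day.

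The receptor gene Flt4 (A_51_P179531, chr11:49465646-49465705) was well above background on every array. Its levels in YFP-positive cells were 2.07, 2.67, 3.44 and -0.40 at day 3, 2.03, 1.66 and 2.02 at day 7, and 3.24 and 1.53 at day 14. In YFP-negative cells they were 3.01, 2.06 and 2.74 at day 3, 2.65, 1.27 and 0.60 at day 7, and 3.43, 3.43 and 2.29 at day 14, against 2.65 and 3.45 in day 0 cells. The fractions overlapped at each day, and the lowest value, -0.40, was 1 YFP-positive array of day 3. The difference of -0.31 ± 0.47 (SE) over the days was smaller than its error.

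The transcription factor gene Prox1 had 3 probes, all well above background on every array. For the brightest, A_51_P369058, levels in YFP-positive cells were 0.45, -0.74, -1.29 and 1.51 at day 3, -0.44, -2.67 and -3.32 at day 7, and 0.83 and -0.49 at day 14. In YFP-negative cells they were -2.38, -0.13 and -3.70 at day 3, -0.87, -2.01 and -3.11 at day 7, and -1.56, -1.92 and -0.83 at day 14, against -0.02 and -0.77 in day 0 cells. The fractions overlapped at days 3 and 7 and were apart at day 14, with YFP-positive cells above. The difference was 2.05, -0.15 and 1.61 at days 3, 7 and 14, and 1.17 ± 0.57 (SE) over the days. At day 3 it was 1.24 without YFP-negative replicate 4, at day 14 it was 0.95 without YFP-positive replicate 1, and at day 7 it was 0.44 without YFP-positive replicate 4.

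The probe A_51_P369056 (chr1:191947038-191947097) gave 2.13 ± 0.69 (SE) over the days, with a lowest, median and highest level of -5.99, -1.94 and -1.14 in YFP-positive cells and of -7.31, -4.78 and -3.26 in YFP-negative cells. The probe A_52_P563908 (chr1:191942646-191942705) gave 1.23 ± 0.70 (SE), with -3.74, -0.65 and 0.94 in YFP-positive cells and -3.92, -1.95 and 0.67 in YFP-negative cells. The 3 Prox1 probes followed each other across the 20 arrays, with r of 0.63 to 0.76.

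Mmrn1, which encodes multimerin, a secreted protein of lymphatic and other endothelial cells and of platelets, was measured by A_51_P423290 (chr6:60938883-60938942). Its levels in YFP-positive cells were -8.46, -7.97, -3.03 and -6.84 at day 3, -3.54, -9.36 and -9.78 at day 7, and -10.03 and -7.39 at day 14. In YFP-negative cells they were -3.20, 0.57 and -2.22 at day 3, -1.37, -3.08 and -6.05 at day 7, and -1.92, -2.63 and -1.66 at day 14, against -2.67 and -2.27 in day 0 cells. The fractions were apart at day 14, and at days 3 and 7 a single YFP-positive array in each (-3.03 and -3.54) reached into the YFP-negative range. All 9 YFP-positive arrays lay below both day 0 arrays, whereas YFP-negative arrays lay on both sides of them. Day by day, 14.4, 26.1 and 31.1% of all probes had all YFP-positive arrays below both day 0 arrays at days 3, 7 and 14.

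The difference for Mmrn1 was -4.95, -4.05 and -6.64 at days 3, 7 and 14, and -5.22 ± 1.0 (SE) over the days. The probe was well above background on 3 of 9 YFP-positive arrays and on 9 of 9 YFP-negative arrays, so its size depends on how dim signals are treated, and it was -2.31 with normexp background correction. The second Mmrn1 probe, A_52_P126132 (chr6:60896017-60896076, 42866 bases from the first), listed under a cDNA clone, was well above background on 1 array of day 0 alone, at -5.92, and between -10.15 and -8.97 on all others, so it was not tested.

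Pdpn, the gene of podoplanin, a surface mucin that binds the platelet receptor CLEC-2, had 2 probes that followed each other across the arrays (r = 0.98). For A_52_P380805 (chr4:142858258-142858317) levels in YFP-positive cells were -1.12, -2.10, -6.41 and 0.24 at day 3, 0.43, -2.85 and -1.71 at day 7, and -0.44 and 0.33 at day 14. In YFP-negative cells they were -4.29, -4.31 and -3.39 at day 3, -2.44, -3.61 and -2.59 at day 7, and -2.62, -3.26 and -1.81 at day 14, against -4.72 and -3.47 in day 0 cells. YFP-positive arrays were above YFP-negative arrays of the same day except for 1 array of day 3, the lowest of all at -6.41, and 1 array of day 7, at -2.85.

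The differences were 1.65, 1.51 and 2.51 at days 3, 7 and 14, and 1.89 ± 0.73 (SE) over the days. At day 3 the difference was 0.78 without YFP-positive replicate 4 and 3.00 without YFP-positive replicate 3, and at day 7 it was 0.61 without YFP-positive replicate 1 and 2.25 without YFP-positive replicate 3. The other probe, A_51_P520456, for which the files list chr4:142857325-142857343, 19 of its 60 bases, gave 2.06 ± 0.72 (SE), with a lowest, median and highest level of -6.50, -1.75 and 0.54 in YFP-positive cells and of -4.60, -3.78 and -1.71 in YFP-negative cells.

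Vwf, the gene of von Willebrand factor, had 2 bright probes 693 bases apart and a dim one. For A_51_P103397 (chr6:125636551-125636610) levels in YFP-positive cells were 1.79, 3.31, 3.33 and 2.87 at day 3, 1.72, 2.02 and 2.20 at day 7, and 2.77 and 3.66 at day 14. In YFP-negative cells they were 3.84, 4.33 and 3.25 at day 3, 4.63, 3.19 and 1.66 at day 7, and 2.99, 3.25 and 5.15 at day 14, against 3.30 and 2.88 in day 0 cells. The fractions overlapped at every day for this probe. For A_51_P103406 all YFP-positive arrays of day 3 lay narrowly below all YFP-negative arrays (highest 3.13 against lowest 3.14). The difference was -0.91 ± 0.41 (SE) over the days for A_51_P103397 and -1.12 ± 0.48 (SE) for A_51_P103406.

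The dim Vwf probe A_51_P206886 (chr6:125554568-125554627), listed under a cDNA clone, gave -1.63 ± 0.79 (SE) and was well above background on 5 of 9 YFP-positive and 7 of 9 YFP-negative arrays. Its level ran from -9.93 to -5.23 in YFP-positive cells and from -8.83 to -2.49 in YFP-negative cells. At day 3 its YFP-positive arrays all lay below the YFP-negative ones (highest -6.88 against lowest -6.06), with 2 of 4 YFP-positive arrays well above background.

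Counted over the 15 probes, all YFP-positive arrays lay below all YFP-negative arrays of the same day for 3, 1 and 3 probes at days 3, 7 and 14 (1.85, 5.29 and 15.1% of all probes) and above them for 0, 1 and 5 (3.60, 4.19 and 18.8%). At day 3 the 3 below were Ccbe1 A_52_P39083 and the Vwf probes A_51_P103406 and A_51_P206886. At day 14 the 3 below were Mmrn1, Ccbe1 A_52_P39083 and Vegfc, and the 5 above were the Prox1 and Pdpn probes, in a group of 2 YFP-positive arrays.

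Arrays lay on 7 slides, and 3 slides held a YFP-positive and a YFP-negative array of the same day, 1 slide at day 3 and 2 at day 7, which gives 1 array minus 1 array in each. Within them Mmrn1 differed by -5.25, -7.98 and -3.73, the Ccbe1 probe A_52_P39083 by -3.35, -3.40 and -7.93, and Vegfc by -2.40, -1.73 and -1.08, so all 3 were lower in YFP-positive cells on each slide. Pdpn (A_52_P380805) differed by 3.16, -0.40 and 0.88, Prox1 (A_51_P369058) by 2.83, -1.80 and -0.21, Flt4 by -0.94, -0.98 and 1.42, and Vwf (A_51_P103397) by -2.05, -2.61 and 0.54, so for these 4 genes the direction was not the same on the 3 slides.

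**Figure D3:**
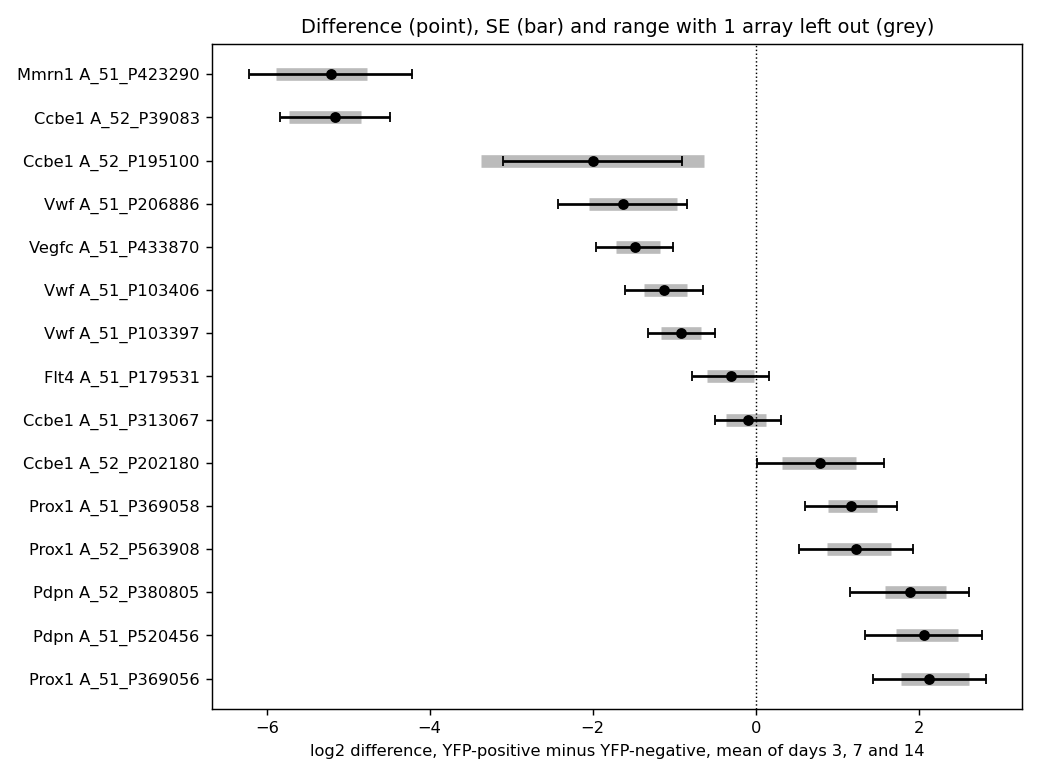
Difference in level of each of the 15 tested probes between YFP-positive and YFP-negative cells (horizontal axis, log2) over the mean of days 3, 7 and 14. Black bars are standard errors and grey bars the range with 1 array left out; Mmrn1 at -5.22 and Ccbe1 A_52_P39083 at -5.16 lie farthest below 0, and the Prox1 and Pdpn probes lie above 0 at 1.17 to 2.13.

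Each sorted group was then compared with day 0, which asks how sorted cells of injured livers stand against the whole non-parenchymal fraction of uninjured livers. These 6 comparisons share the 2 day 0 arrays. None of the 90 probe values passed an adjusted p of 0.05 in limma (11 had an unadjusted p under 0.05), where 0.0328, 0.0253 and 0.152% of all probes passed for YFP-positive cells at days 3, 7 and 14, and 0.0379, 0.0227 and 0.0278% for YFP-negative cells. At an unadjusted p under 0.05 there were 1, 5 and 3 of 15 probes for YFP-positive cells (10.4, 11.4 and 11.9% of all probes) and 0, 1 and 1 for YFP-negative cells (5.91, 8.12 and 10.2%). The median over all probes lay between -0.25 and -0.41 in these comparisons, and a value near that is not a change relative to the array.

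Mmrn1 in YFP-positive cells differed from day 0 by -4.10 ± 1.80 at day 3 (SE, limma adjusted p = 0.458), -5.08 ± 1.90 at day 7 (limma adjusted p = 0.341) and -6.24 ± 2.08 at day 14 (limma adjusted p = 0.249), the last being the lowest adjusted p of the 90. In YFP-negative cells it differed by 0.85, -1.03 and 0.40, less than the SE of 1.90 in each. For Mmrn1, then, YFP-positive cells lay below day 0 and YFP-negative cells within 1 SE of it.

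For the Ccbe1 probe A_52_P39083 YFP-negative cells stood above day 0, by 1.92 ± 1.29 at day 3 (SE, limma adjusted p = 0.798), 3.64 ± 1.29 at day 7 (limma adjusted p = 0.531) and 3.77 ± 1.29 at day 14 (limma adjusted p = 0.456). YFP-positive cells differed by -0.47 ± 1.22, -2.93 ± 1.29 and -2.76 ± 1.41 (SE) at days 3, 7 and 14, with a limma adjusted p of 0.409 at day 7. No YFP-positive array was well above background at day 14, and the difference there ran from -2.76 to -0.082 over the processing alternatives, the smallest with normexp background correction.

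Pdpn was higher in YFP-positive cells than at day 0 by 1.75 ± 1.31, 2.72 ± 1.38 and 4.04 ± 1.51 (SE) at days 3, 7 and 14 for A_52_P380805, with a limma adjusted p of 0.301 at day 14, and by 1.96 ± 1.30, 3.12 ± 1.37 and 4.35 ± 1.50 (SE) for A_51_P520456, with a limma adjusted p of 0.264 at day 14. Vegfc in YFP-positive cells differed by -1.10 ± 0.85, -2.16 ± 0.90 and -1.53 ± 0.98 (SE), with a limma adjusted p of 0.393 at day 7. The dim Vwf probe A_51_P206886 differed by -3.65 ± 1.50 (SE, limma adjusted p = 0.390) at day 7 in YFP-positive cells.

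Flt4 in YFP-positive cells differed from day 0 by -1.10 ± 0.85, -1.15 ± 0.90 and -0.67 ± 0.99 (SE), and Vwf (A_51_P103397) by -0.26 ± 0.74, -1.11 ± 0.78 and 0.13 ± 0.86 (SE). Prox1 (A_51_P369058) in YFP-negative cells differed by -1.68 ± 1.08, -1.60 ± 1.08 and -1.04 ± 1.08 (SE). None of these passed, and their errors leave changes of several fold undetectable with 2 day 0 arrays.

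Of the 15 probes, those with all arrays below both day 0 arrays numbered 2, 6 and 3 in YFP-positive cells at days 3, 7 and 14 (14.4, 26.1 and 31.1% of all probes) and 2, 5 and 3 in YFP-negative cells (25.5, 23.4 and 30.1%). Those with all arrays above numbered 0, 2 and 3 in YFP-positive cells (6.30, 10.4 and 16.4% of all probes) and 1, 1 and 4 in YFP-negative cells (8.76, 9.33 and 11.1%). With 2 day 0 arrays such separation is common on the array, so these counts say little about the 7 genes.

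The authors' deposited table gives its own fold changes against day 0, written as signed linear folds with a false discovery rate (FDR). In the authors' deposited table Mmrn1 in YFP-positive cells stood at -10.5, -17.5 and -52.6 at days 3, 7 and 14, with FDR of 7.25, 3.90 and 0%. Its call there in the authors' deposited table was M, M and A, against P at day 0, and Ccbe1 A_52_P39083 had P, M and M, against P at day 0. In the authors' deposited table the Pdpn probe A_51_P520456 stood at 4.62, 9.66 and 24.9 in YFP-positive cells, with FDR of 25.4, 1.82 and 0.36%. Ccbe1 A_52_P39083 stood at 2.73, 12.8 and 12.8 in YFP-negative cells in the authors' deposited table, with FDR of 34.6, 2.58 and 6.22%, and at -6.62 in YFP-positive cells at day 14, with FDR of 5.44%. For YFP-positive cells at day 14 the Ccbe1 probes disagreed in the authors' deposited table. A_52_P202180 stood at 6.65 (FDR 3.13%), where its limma difference was 0.14. A_51_P313067 stood at 1.91 (FDR 5.44%) and A_52_P195100 at -1.43 (FDR 53.8%) in the authors' deposited table. Vegfc in YFP-positive cells stood at -4.59 at day 7 and -4.08 at day 14 in the authors' deposited table, with FDR of 3.24 and 1.60%.

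At an FDR of 5% the authors' deposited table lists 0, 4 and 6 of the 15 probes in YFP-positive cells at days 3, 7 and 14, where it lists 1.94, 10.6 and 16.3% of all 42175 rows, and 0, 1 and 1 in YFP-negative cells, where it lists 3.37, 3.62 and 1.64%. Of the 90 values, 77 had the same sign in the authors' deposited table and in the limma fit. The method and the samples behind the deposited values are not given in the sources used here. The series has 4 day 0 and 3 YFP-positive day 14 samples, of which 2 and 2 entered the limma fit, so the calls in the authors' deposited table and in the fit may rest on different samples.

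Change over time within a fraction was tested next. From day 3 to day 14, 0 of 30 probe values passed in limma (0 at an unadjusted p under 0.05, lowest adjusted p 0.787), where 0.0404% of all probes passed in YFP-positive cells and 0% in YFP-negative cells (6.86 and 3.49% unadjusted). From day 3 to day 7, 0 of 30 passed (2 unadjusted, lowest limma adjusted p 0.944), with 0% of all probes passing in either fraction (4.88% unadjusted in YFP-positive and 3.72% in YFP-negative cells). The 2 were Ccbe1 A_52_P39083, at -2.46 ± 1.08, and Prox1 A_51_P369058, at -2.12 ± 0.90 (SE), both lower at day 7 than at day 3 in YFP-positive cells.

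Whether the difference between the fractions itself changed from day 3 to day 14 was tested as an interaction. Of 15 probes 0 passed in limma (1 unadjusted), where 0% of all probes passed (3.17% unadjusted). The 1 was Ccbe1 A_52_P39083, whose difference between the fractions was lower at day 14 than at day 3 by a change of -4.13 ± 1.68 (SE, limma adjusted p = 1.0). A change of the Mmrn1, Pdpn or Vegfc difference over the days was not detectable at these group sizes.

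Ranked by group mean, Ccbe1 A_52_P39083 ran from YFP-negative cells at day 14 (-1.80 ± 0.70, SD) and day 7 (-1.93 ± 0.16) through day 3 (-3.65 ± 0.16), day 0 (-5.57 ± 1.46) and YFP-positive cells at day 3 (-6.04 ± 1.62) to day 14 (-8.33 ± 1.09) and day 7 (-8.50 ± 2.91). Neighbours in that order were apart by more than their pooled SD at 3 of 6 steps. Mmrn1 ran from YFP-negative cells at day 3 (-1.62 ± 1.96), day 14 (-2.07 ± 0.50) and day 0 (-2.47 ± 0.28) through YFP-negative cells at day 7 (-3.50 ± 2.37) to YFP-positive cells at day 3 (-6.57 ± 2.46), day 7 (-7.56 ± 3.49) and day 14 (-8.71 ± 1.87). Only the step between YFP-negative cells at day 7 and YFP-positive cells at day 3 exceeded the pooled SD. For Flt4 and Vegfc no step did.

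Markers of other cell types moved with several of these genes. Each measured marker outside the 7 genes was well above background on at least 12 of the 20 arrays, and 10 of 15 such lymphatic and 16 of 18 such large vessel markers were on all 20. Among the endothelial lists, in the difference between YFP-positive and YFP-negative cells over the days, 16 of 19 lymphatic markers were lower and 3 higher (median -0.94), 17 of 19 large vessel markers were lower and 2 higher (median -0.99), and all 12 pan-endothelial (median -0.78) and all 10 sinusoidal markers (median -0.48) were lower, beside a median of 0.06 over all genes. These lists overlap with the 7 genes and were chosen with results in view.

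Past the threshold among the lymphatic markers outside the 7 genes were Fgl2 at -3.42 ± 0.70 and Reln at -3.34 ± 0.67 (SE), where 0.638% of all genes passed. Passing in this contrast is a description, here and for the markers below, because the lists were chosen with results in view. Fgl2 was well above background on 6 of 9 YFP-positive and 9 of 9 YFP-negative arrays. Reln, which encodes the secreted glycoprotein reelin, is also made by hepatic stellate cells. The sinusoidal marker Stab1, a scavenger receptor, differed by -0.73 ± 0.47 and the pan-endothelial adhesion molecule Pecam1 by -1.19 ± 0.55 (SE). The large vessel gap junction gene Gja5, named beyond the naming rule, differed by -1.71 ± 0.44 (SE), farther from 0 than the median of its list (-0.99).

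By their medians, mesenchymal and biliary markers stood farther apart than endothelial ones. Of 12 stellate cell and fibroblast markers 11 were lower in YFP-positive than in YFP-negative cells (median -2.92), led by the collagen gene Col1a1 at -4.95 ± 0.98, the proteoglycan gene Lum at -4.01 ± 0.83 and Reln. Of 8 biliary markers 8 were higher (median 2.87), among them the keratin gene Krt19 at 3.46 ± 0.79, the claudin gene Cldn7 at 3.54 ± 0.73 and the chloride channel gene Cftr at 2.48 ± 0.50 (SE), of which Cldn7 and Cftr were past the threshold. The mean level of the stellate list had a lowest, median and highest value of -2.81, -0.66 and 1.44 on YFP-positive arrays and of 1.21, 2.06 and 2.96 on YFP-negative arrays, and ran from 0.03 to 0.82 at day 0. That of the biliary list was -0.39, 2.66 and 4.23 on YFP-positive arrays and -2.20, -0.42 and 2.02 on YFP-negative arrays, and ran from 0.15 to 1.11 at day 0.

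Platelet markers, which share Mmrn1 and Vwf expression with endothelium, had 7 of 12 higher and 5 lower (median 0.37), with Pf4, a platelet chemokine, at 0.40 ± 0.55 (SE). Their mean level was -3.13, -2.61 and -2.32 (lowest, median and highest) on YFP-positive arrays and -3.10, -2.55 and -2.37 on YFP-negative arrays, a near complete overlap. Of the mesothelial list 5 of 7 genes were lower (median -0.89; Msln 0.62 ± 0.68), of the macrophage list 5 of 7 (median -0.56; Emr1 -0.86 ± 1.24) and of the hepatocyte list 4 of 8 (median -0.18; Alb 0.05 ± 0.33, SE), and none of the platelet, mesothelial, macrophage, hepatocyte, large vessel, pan-endothelial or sinusoidal markers passed. In the 11 tested comparisons 0 of 1342 values of list genes passed in limma (110 at an unadjusted p under 0.05, lowest adjusted p 0.0755).

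As a description over the 20 arrays, which share their scaling and fall into 2 sorted fractions, each gene was set against the mean level of these lists with the 7 genes left out. Flt4 followed the pan-endothelial list most closely (Pearson r = 0.94, Spearman rho = 0.93), also within the 9 YFP-positive (r = 0.97) and the 9 YFP-negative arrays (r = 0.97). The sinusoidal list was nearly as close to Flt4 (r = 0.92, rho = 0.90), with r of 0.95 within YFP-positive and 0.92 within YFP-negative arrays. Pdpn followed the biliary list (r = 0.75, rho = 0.75), closely within YFP-positive (r = 0.96) and weakly within YFP-negative arrays (r = 0.34). Within YFP-negative arrays it lay closer to the mesothelial list (r = 0.62), with which it had r of 0.67 within YFP-positive and 0.17 over all 20 arrays. Prox1 had r of 0.66 with the biliary list, and 0.59 and 0.72 within the YFP-positive and YFP-negative arrays. Within YFP-negative arrays its r was nearly as high with the stellate (0.70) and mesothelial lists (0.69), with which it had r of -0.41 and 0.23 over all 20 arrays.

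Ccbe1 (A_52_P39083) followed the stellate list (r = 0.87, rho = 0.91), with r of 0.74 within YFP-positive and 0.27 within YFP-negative arrays. Within YFP-negative arrays it lay closer to the mesothelial list (r = 0.70), with which it had r of -0.18 within YFP-positive and 0.42 over all arrays. Mmrn1 lay about as close to the VEGFC pathway list (r = 0.78, rho = 0.87) as to the lymphatic list (r = 0.77, rho = 0.86). With the lymphatic list its r was 0.42 within YFP-positive and 0.75 within YFP-negative arrays, where it was 0.76 with the stellate list. Vegfc followed the VEGFC pathway list (r = 0.87, rho = 0.87), with r of 0.70 within YFP-positive and 0.87 within YFP-negative arrays. By rank the large vessel list was about as close to Vegfc (rho = 0.89, r = 0.74), with r of 0.48 within YFP-positive and 0.90 within YFP-negative arrays. Over all arrays Vegfc also had r of 0.77 with the pan-endothelial, 0.73 with the lymphatic and 0.72 with the stellate list. Vwf followed the large vessel list (r = 0.62, rho = 0.82), with 0.18 within YFP-positive and 0.90 within YFP-negative arrays. The part of these cell type markers in the differences between the fractions was not tested.

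**Figure D4:**
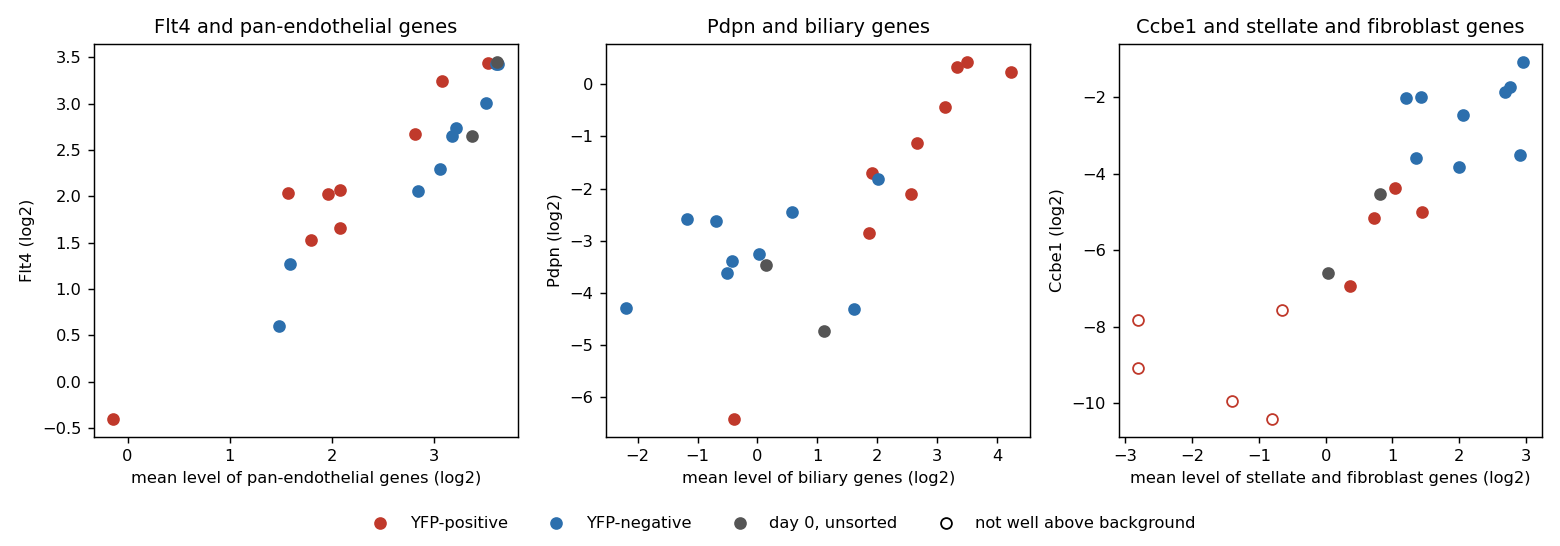
Level of a gene's brightest probe on each of the 20 arrays (vertical axis, log2) against the mean level of a marker list without the 7 genes (horizontal axis, log2), coloured by group, with open points not well above background. Flt4 is high where the pan-endothelial list is high (r = 0.94), Pdpn where the biliary list is (r = 0.75) and Ccbe1 where the stellate and fibroblast list is (r = 0.87).

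The 2 arrays that stood apart were both of YFP-positive cells at day 3. Replicate 3 had the lowest biliary mean of that fraction (-0.39), a pan-endothelial mean of 3.53, the lowest Pdpn and the highest Mmrn1 of the fraction. Replicate 4 had the lowest pan-endothelial mean of all arrays (-0.14), the highest biliary mean (4.23) and the lowest Flt4. Without both, the difference between YFP-positive and YFP-negative cells over the days, a check chosen after seeing the data, was -5.76 ± 0.97 for Mmrn1, -5.14 ± 0.69 for Ccbe1 A_52_P39083, 2.13 and 2.24 for the Pdpn probes, -1.48 for Vegfc and -0.17 for Flt4, and 9 of 15 probes were still lower.

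The other genes of the VEGFC pathway are named here beyond the naming rule, with their values seen. Of the 14 genes of this list 11 were lower in YFP-positive than in YFP-negative cells (median -0.63), and no gene of it outside the 7 was past the threshold. Figf, now Vegfd, the related ligand, differed by -2.57 ± 0.65 (SE). Of the proteases, Adamts3, which cleaves the VEGFC precursor, differed by 0.92 ± 0.33 and its relative Adamts14 by 0.89 ± 0.31, both higher in YFP-positive cells, while Adamts2 differed by -2.65 ± 0.71 (SE). The proprotein convertase gene Pcsk5 differed by -2.49 ± 0.68, Pcsk7 by -0.23 ± 0.40 and Furin by 0.11 ± 0.19 (SE). The receptor genes Kdr and Nrp2 differed by -0.92 ± 0.55 and -0.53 ± 0.39, and the integrin genes Itga9 and Itgb1 by -0.72 ± 0.36 and -0.32 ± 0.19 (SE).

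The genes most alike in pattern over the 20 arrays, among 17051 genes with a symbol, were Ngfr (Pearson r = 0.90), Tbx20 (0.89) and Frzb (0.89) for Ccbe1, and Sfrp1 (0.89), Irs1 (0.87) and Fbln1 (0.86) for Mmrn1. They were Lepr (0.92), Pdlim3 (0.90) and Sept4, now Septin4 (0.90), for Vegfc, and Abhd6 (0.97), Fcgrt (0.96) and Cyp4b1 (0.96) for Flt4. For Pdpn they were H2afy3, now Macroh2a3 (0.89), Pak4 (0.89) and Rhou (0.87), for Prox1 Dsg1c (0.89), Zfp2 (0.88) and Tns1 (0.87), and for Vwf Bmp4 (0.86), Mgp (0.84) and Car5b (0.83). Among the 7 genes themselves the closest were Vegfc with Vwf (r = 0.71), Vegfc with Ccbe1 (0.68), and Mmrn1 with both Ccbe1 and Vegfc (0.62 each), while Pdpn ran against Vegfc (-0.63), Ccbe1 (-0.56) and Mmrn1 (-0.53).

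For Mmrn1 and Vegfc, a pair chosen after their values were seen because they were low together in YFP-positive cells, the 250 bases before the annotated start are shown from RefSeq in GRCm38.p6, a later build than the probe positions. The Mmrn1 stretch is chr6:60944067-60944316 on the + strand, with 42.4% G and C and 3 CpG, and the Vegfc stretch is chr8:54077282-54077531 on the + strand, with 71.6% and 30. Capitals mark the matches found among 5 short motifs searched on both strands.
Mmrn1: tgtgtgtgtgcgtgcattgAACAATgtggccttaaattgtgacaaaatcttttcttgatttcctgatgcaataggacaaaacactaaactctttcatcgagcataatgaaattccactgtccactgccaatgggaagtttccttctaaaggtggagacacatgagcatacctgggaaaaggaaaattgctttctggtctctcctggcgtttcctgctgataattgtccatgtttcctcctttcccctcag
Vegfc: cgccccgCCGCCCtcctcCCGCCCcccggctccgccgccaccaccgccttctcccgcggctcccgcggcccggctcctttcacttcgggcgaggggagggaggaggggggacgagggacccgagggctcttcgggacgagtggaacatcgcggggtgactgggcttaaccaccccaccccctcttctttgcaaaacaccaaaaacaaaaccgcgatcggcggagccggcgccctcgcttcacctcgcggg

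The Mmrn1 stretch held the SOX motif AACAAT 231 bases before the start, and the Vegfc stretch held the GC box GGGCGG, on the reverse strand, 243 and 232 bases before it. The TATA box TATAAA, the AP-1 motif TGANTCA and the ETS motif CCGGAAG had no match in either. Over the same window of 32851 promoters GGGCGG was present in 32.7%, TATAAA in 12.4%, AACAAT in 9.42%, CCGGAAG in 6.91% and TGANTCA in 6.75%. The 2 stretches thus shared none of the 5 motifs and differed in base composition, on either side of the median of 52.4% G and C over all promoters. Whether transcription begins at these annotated starts in liver cells was not tested, so either stretch may not be the promoter in use.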

How the data were processed

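RNA was purified with Trizol and then RNeasy, amplified (WT-Ovation Pico) and given a Cy3 label, per the labels' protocols. Each deposited scanner file holds a processed signal, that is, an intensity from which background was subtracted within the array, with no scaling across arrays, per the file headers. These name Feature Extraction 10.5.1.1, while the submitters' processing notes name 9.53. The authors' deposited table holds signed linear fold values and an FDR in percent. Here control and outlier spots were left out, spots of a probe averaged, and the log2 of the deposited intensity over each array's 75th percentile taken. The 39595 probes (26650 genes) above background by the scanner's call on 2 or more arrays were fitted with limma 3.58.1 in R 4.3.3 (with jsonlite 2.0.0, statmod 1.5.0 and version 1.17.8 of data.table), 7 groups in 1 model with 13 residual degrees of freedom, Benjamini-Hochberg adjusted over all probes, threshold 0.05. The fit was checked on simulated data. A list is given by the brightest probe of each gene.

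Members and lists were chosen with earlier results of these data known. Named were all member probes, from each list its first gene and up to 3 past the threshold, and the 3 genes most alike. Lists were VEGFC pathway, lymphatic, large vessel, pan-endothelial, sinusoidal, platelet, stellate and fibroblast, mesothelial, hepatocyte, biliary and macrophage. Alternatives were normexp (offset 50), quantile and median scaling, probe filters, outlier spots, slide and replicate blocks and left-out arrays. Positions are mm9 per the files. Same-numbered samples were little alike at the median (correlation of their deviations 0.01, -0.22 to 0.38, 43 pairs). These pairs mix days and include day 0, so they cannot decide whether both fractions of a day came from the same mice. The fit treated samples as unpaired. Foxl1 is not analysed here. The number of arrays limits the precision.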

Additional observations from a re-analysis of the deposited data

Results flagged for a closer look

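Among the 27 values tested for a sample far from the others of its group (16 probes and 11 list means in the 4 YFP-positive arrays of day 3), 2 stood out, where chance gives about 1 in 20. The Mmrn1 probe A_52_P126132 was -8.97 on 1 array, with a gap to the nearest that was 0.961 of the range, but was not well above background there. The mean of the macrophage list was -1.46 on replicate 4, with a gap of 0.837 of the range.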

How the results depend on the processing

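No member probe passed in the tested comparisons under any of 11 other settings or 20 left-out arrays (0 to 0 of each family in every case), and the lowest limma adjusted p in any was 0.0527. Of 165 tested values 61 changed sign under at least 1 other setting and 90 when left-out arrays are included, but 0 of the 14 with an unadjusted p under 0.05 did. The count of probes lower in YFP-positive cells was 8 to 9 of 15 over the days and 22 to 27 of 45 at each day with 1 array left out. With only the brightest probe of each gene it was 5 of 7 and 15 of 21, fewer because fewer probes were counted. Whether same-numbered samples of a day were paired could not be decided, and with a replicate block Mmrn1 differed by -5.14 and Ccbe1 A_52_P39083 by -5.14. For Mmrn1 and this Ccbe1 probe the difference over the days was -2.31 and -2.46 with normexp, -5.25 and -5.02 with quantile scaling, -6.77 and -4.39 with slide as a fixed block, and -5.89 to -4.77 and -5.72 to -4.85 with 1 array left out. Probes past the threshold in that contrast numbered 258, against 54 with normexp, 1156 with quantile scaling, 525 with median scaling, 3 with slide as a fixed block, 86 with the replicate block, 1173 without the 2 arrays that stood apart, a choice made after seeing the data, and 69 to 1723 with 1 array left out.

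Of the values against day 0 given above for single probes, those that changed sign were Mmrn1 in YFP-negative cells at day 7 (1.17 with slide as a fixed block), Ccbe1 A_52_P39083 in YFP-positive cells at day 3 (0.49 with quantile scaling, 0.19 with slide as a fixed block), and Vwf A_51_P103397 in YFP-positive cells at day 3 (0.036 with median scaling) and day 14 (-0.014 with normexp). With 1 array left out they ran from -2.09 to 0.25, -1.50 to 0.56, -0.47 to 0.081 and -0.32 to 0.57, and Mmrn1 in YFP-negative cells at day 3 ran from -0.24 to 1.65 and Flt4 in YFP-positive cells at day 14 from -1.52 to 0.19. The cause was not tested. Dim signals limit Mmrn1 and the Ccbe1 probe A_52_P39083, well above background on 3 and 4 of the 9 YFP-positive arrays.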
